A study of Mus musculus with 6 samples.

Results

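The Speer genes encode spermatogenesis-associated glutamate-rich proteins, and 8 of them (Speer2, Speer3 and Speer4a to Speer4f) were followed here in the testis of mice lacking Trf2. The 8 were taken by gene name from a count table of 26743 genes. They were selected on the raw counts of wild-type (WT) against Trf2-/- testis, because decreases were frequent on chromosome 5, where most of the copies lie. Their differences between genotypes are therefore given as a description. Calls of members from the fit over all genes are counted beside the share of all genes called, and are not evidence independent of that selection.

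Speer genes are a multicopy family of rodents, made of near-identical tandem copies and many truncated or untranslated ones. They are known as genes of male germ cells, expressed late in spermatogenesis, and their products are small proteins rich in glutamate whose molecular role is poorly understood. Trf2, named Tbpl1 in gene annotations, is a relative of the TATA-binding protein. It associates with the general factor TFIIA, is abundant in the testis and is needed for spermatids to mature.

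RNA-seq was performed on whole testis of 3 WT and 3 Trf2-/- mice, all at postnatal day 21, when the first wave of spermatogenesis has just produced round spermatids. The knock-out is labelled as homozygous, with no restriction to a cell type, and the tissue was not sorted, so that germ cells of all stages present, Sertoli cells and interstitial cells were measured together. The allele of the Trf2-/- mice is not given in the sources used here. The study's methods name a 129/SvPas background beside its mice with a tagged Trf2, and whether it also holds for the Trf2-/- mice is not stated. The libraries held 21582123 to 29859347 counts on genes in WT and 15187062 to 24530489 in Trf2-/- mice, the shallowest being Trf2-/- mouse 3. Levels are given as CPM, the count of a gene relative to the total count of its library, scaled by the TMM method. A floor of 3 counts corresponded to 0.105 to 0.144 CPM in WT and to 0.119 to 0.190 CPM in Trf2-/- mice. The targeted gene Tbpl1 fell from 308, 283 and 294 CPM in WT to 62.9, 64.3 and 55.8 CPM in Trf2-/- mice.

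The family is not a uniform set of sequences. A stretch of 50 coding bases, the length of 1 sequencing read, is shown for each member because it makes visible which copies a read could tell apart. It was taken from the aligned coding sequences as the gap-free stretch inside 1 exon in which Speer4d has the most glutamate codons, 5 in number. Bases that differ from the most common base of the 8 copies are in capitals.
Speer2: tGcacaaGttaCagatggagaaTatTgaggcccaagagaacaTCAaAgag
Speer3: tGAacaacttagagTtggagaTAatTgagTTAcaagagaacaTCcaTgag
Speer4a: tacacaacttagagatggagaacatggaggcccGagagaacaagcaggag
Speer4b: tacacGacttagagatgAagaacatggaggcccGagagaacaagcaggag
Speer4c: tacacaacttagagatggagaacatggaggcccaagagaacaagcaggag
Speer4d: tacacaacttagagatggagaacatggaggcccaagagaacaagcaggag
Speer4e: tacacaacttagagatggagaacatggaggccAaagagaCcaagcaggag
Speer4f: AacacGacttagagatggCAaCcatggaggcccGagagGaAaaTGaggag

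In the genome build NCBIM37, the one to which the files refer, the stretch lies in a coding exon at chr16:69859023-69859072 on the minus strand in Speer2 and at chr5:13794692-13794741 on the plus strand in Speer3. Speer4d carries it at chr5:15127552-15127601 (plus strand) and Speer4c at chr5:15217369-15217418 (minus strand). These are the same 50 bases, and they occur at 4 places in the genome. The versions of Speer4a, Speer4e and Speer4f each occur at 2 places, whereas those of Speer2, Speer3 and Speer4b occur at 1 place. Speer3 departs from the most common bases at 12 positions, Speer4f at 10 and Speer2 at 9, against 0 to 3 positions in the other members. The remaining coordinates are chr5:26363250-26363299 for Speer4a, chr5:27825263-27825312 for Speer4b and chr5:14935755-14935804 for Speer4e, all on the minus strand, and chr5:16984507-16984556 on the plus strand for Speer4f.

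Over the whole coding sequence, the 15 pairs of Speer4 copies were 83.8% to 98.7% identical. The closest pair was Speer4c and Speer4d, at 98.7% over 639 aligned bases, and Speer4a and Speer4b were 95.1% identical. Speer4f was the most divergent Speer4 copy, with 83.8% to 86.2% identity to the others. Speer2 and Speer3 were 89.1% identical over 786 bases, although they lie on different chromosomes, and each shared only 73.5% to 78.7% with the Speer4 copies. The members thus fall into a Speer2 and Speer3 pair and a Speer4 group by sequence, whereas by position Speer3 lies with the Speer4 copies on chromosome 5.

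The name of the family was borne out by the coding sequences, in which 12.1% (Speer2) to 16.4% (Speer4d) of codons encoded glutamate. The median over 19148 coding genes was 6.52%. The 8 members stood between the 95.8th and the 99.4th percentile of these genes, and their coding sequences were short, with 213 to 268 codons including the stop codon. The Speer4 copies, at 14.2% or more, all held a larger share of glutamate codons than Speer2 and Speer3.

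These identities bear on every count below, since reads from near-identical copies may have been split between them, discarded or assigned to the wrong copy. Of all 50-base windows inside its exons, 94.0% (819 of 871) occurred once in the genome for Speer2 and 81.5% (772 of 947) for Speer3. The share was 62.3% for Speer4b, 52.4% for Speer4a, 50.6% for Speer4f, 42.5% for Speer4e and 30.8% for Speer4d. It was lowest for Speer4c, at 15.4% (141 of 914). Speer4d shared exact windows with each of the other 5 Speer4 copies, while Speer2 shared some with Speer3 and with the related gene Speer1-ps1. The counts of Speer2 and Speer3 can therefore be assigned to their gene with far less ambiguity than those of Speer4c, Speer4d and Speer4e.

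**Figure D1:**
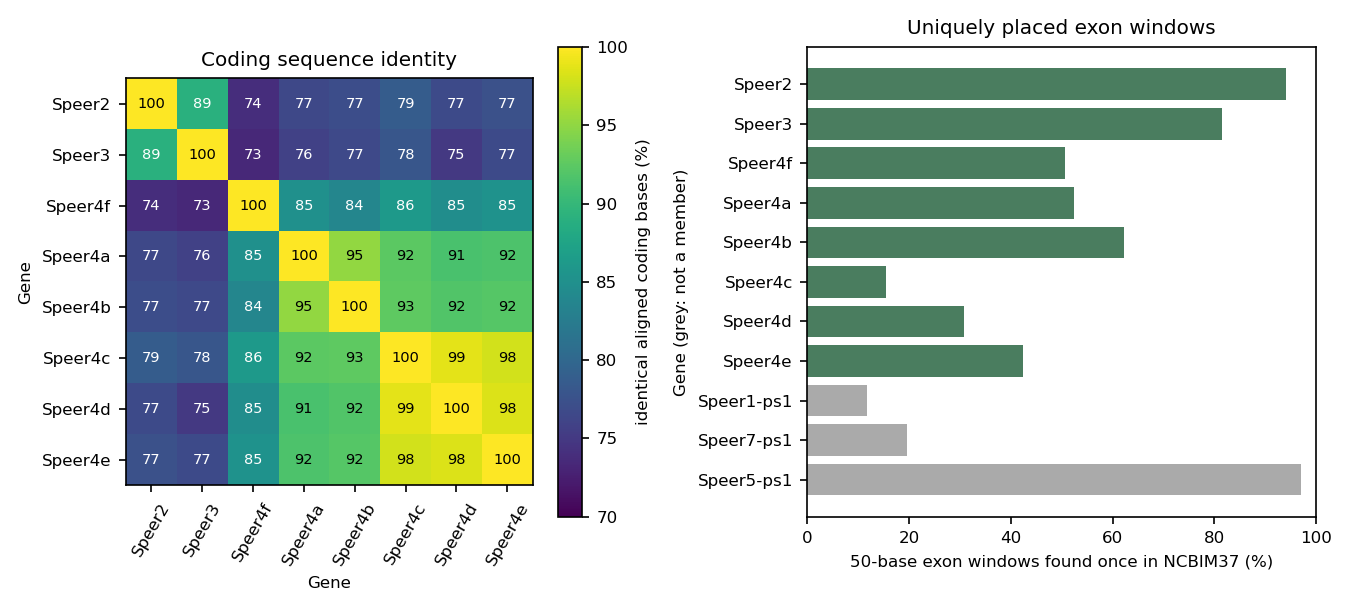
Left, percentage of identical aligned coding bases for each pair of the 8 Speer genes (colour and number). Right, percentage of 50-base exon windows that occur once in the NCBIM37 genome, for the 8 genes (green) and for 3 other Speer genes (grey). Speer4c, Speer4d and Speer4e form a block of 97.9% to 98.7% identity and hold 15.4% to 42.5% uniquely placed windows, against 94.0% for Speer2.

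Speer2 was by far the most abundant member. It is the only one outside chromosome 5 (ENSMUSG00000063163, chr16:69857119-69863989, minus strand). The WT mice had levels of 73.5, 70.9 and 72.1 CPM, and the levels of the Trf2-/- mice were 46.0, 46.7 and 33.8 CPM. All 3 Trf2-/- mice were below all WT mice, and Trf2-/- mouse 3 was the lowest of the 6. The means were 72.2 ± 1.28 CPM in WT and 42.1 ± 7.26 CPM in Trf2-/- testis (SD, n = 3), a fitted log2 fold change of -0.77 ± 0.11 (SE). With 5464 counts in WT and 2781 in Trf2-/- mice, the ratio of the genotypes was 0.598 (95% exact interval 0.571 to 0.626). This and the following intervals cover counting error only.

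The 7 members on chromosome 5 were present at a far lower level and are given by their read counts in the order of their position. Speer3 (ENSMUSG00000067855, chr5:13791619-13796820, plus strand) had 7, 6 and 4 counts in WT and 4, 2 and 0 counts in Trf2-/- mice. Its level of 0.222 ± 0.0269 CPM in WT was close to the floor of 3 counts, and the value of 0 counts in Trf2-/- mouse 3 allows up to 0.190 CPM. The ratio of Trf2-/- to WT was 0.415 with an interval of 0.134 to 1.10, so that at this depth a difference was not detectable from its counts alone, although each Trf2-/- mouse was below each WT mouse once normalized.

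Speer4e (ENSMUSG00000091255, chr5:14933221-14938429, minus strand) had 10, 9 and 5 counts in WT and 3, 4 and 1 counts in Trf2-/- mice, a ratio of 0.392 (0.152 to 0.902). Speer4d (ENSMUSG00000070933, chr5:15124882-15129682, plus strand) had 20, 17 and 15 counts in WT against 5, 4 and 1 in Trf2-/- mice. Each Trf2-/- value of both genes lay below each WT value once normalized. For Speer4d the means were 0.689 ± 0.0349 and 0.144 ± 0.0716 CPM, and the fitted log2 fold change was -2.12 ± 0.38.

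Speer4c (ENSMUSG00000073208, chr5:15215319-15220054, minus strand) had 12, 15 and 16 counts in WT and 6, 3 and 2 in Trf2-/- mice, with means of 0.587 ± 0.175 and 0.164 ± 0.0638 CPM. The ratio was 0.301 (0.140 to 0.593). Speer4c shares 300 exon bases with Speer7-ps1 on the opposite strand. The libraries were made with a stranded kit, but the strand setting used for counting is not given in the sources used here, so reads from this overlap cannot be assigned to either gene with certainty.

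Speer4f (ENSMUSG00000058643, chr5:16981916-16986754, plus strand) gave the lowest ratio of the 8 genes. Its counts were 31, 16 and 18 in WT and 4, 4 and 1 in Trf2-/- mice, which correspond to 0.852 ± 0.234 and 0.131 ± 0.0592 CPM. The ratio was 0.163 (0.0713 to 0.328) and the fitted log2 fold change -2.58 ± 0.42. WT mouse 1 was the highest of the WT mice at 1.08 CPM, and the lowest WT value, 0.613 CPM, was still above the highest Trf2-/- value of 0.172 CPM.

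Speer4a (ENSMUSG00000073119, chr5:26359386-26366046, minus strand) had 25, 23 and 19 counts in WT and 11, 8 and 6 in Trf2-/- mice. Its means were 0.888 ± 0.0211 and 0.386 ± 0.0471 CPM, and its log2 fold change of -1.18 ± 0.27 was the smallest among the Speer4 copies that could be fitted. Speer4b (ENSMUSG00000048703, chr5:27822179-27827978, minus strand) had 24, 26 and 22 counts in WT and 4, 9 and 1 in Trf2-/- mice, with a log2 fold change of -2.12 ± 0.43. Trf2-/- mouse 2 was the highest Trf2-/- mouse for Speer4b, at 0.386 CPM. Speer4b lies inside Dpp6, which runs on the opposite strand, and the exons of the pair share 0 bases.

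**Figure D2:**
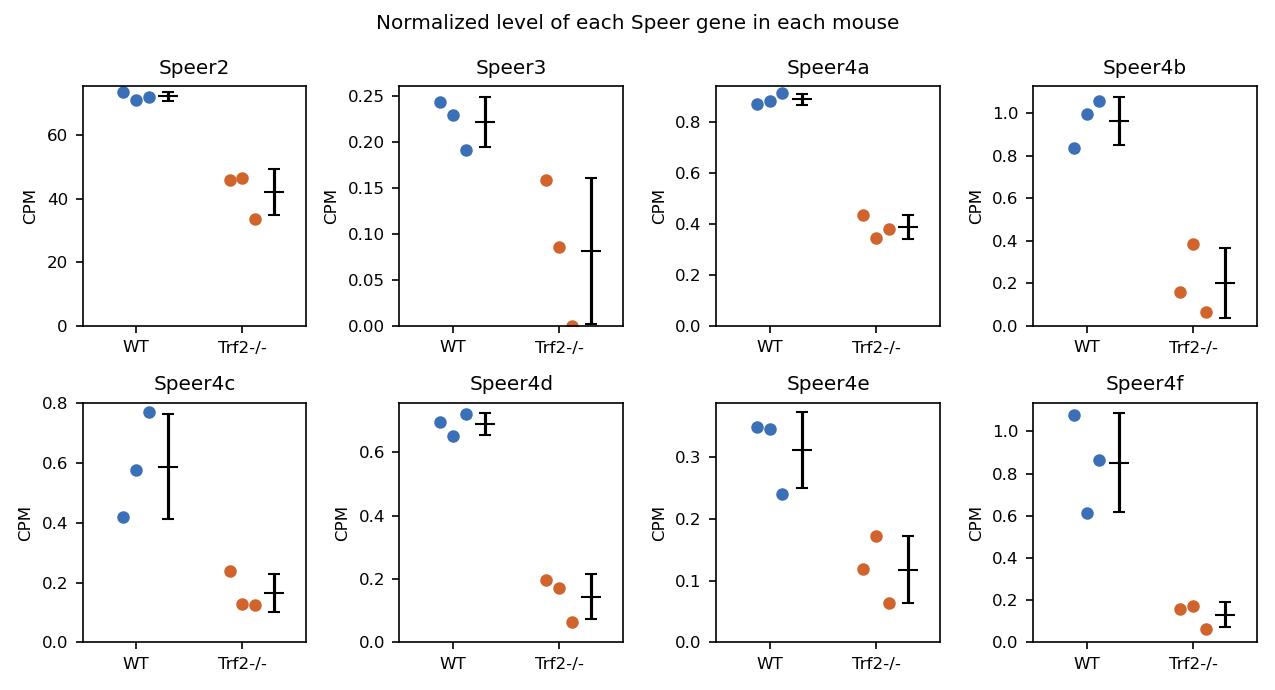
Normalized level (CPM, linear axis starting at 0, a separate scale for each panel) of each Speer gene in the 3 WT (blue) and 3 Trf2-/- (orange) mice, with the mean and SD in black. In all 8 panels the Trf2-/- mice lie below the WT mice, from 46.7 CPM or less against 70.9 CPM or more for Speer2 to fractions of 1 CPM for the other genes.

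Of the 8 members, 5 were abundant enough to enter the fit over all genes, and 3 (Speer3, Speer4c and Speer4e) were not. The filter asks for sufficient counts in at least 3 libraries, and the Speer4 copies met it through the WT mice, so that those that entered are not a neutral sample of the family. Of the 5 fitted members, 4 (Speer4a, Speer4b, Speer4d and Speer4f) were called down-regulated at an adjusted p under 0.05 and at least 2-fold, and 0 were called up-regulated. Over all 16924 genes tested, 4.3% were called down-regulated and 0.609% up-regulated, and the median log2 fold change was 0.04. In all 8 members each Trf2-/- mouse was below each WT mouse, an arrangement shown by 26.8% of the tested genes. As the genes were selected with this comparison known, nothing is read from these counts.

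The fold limit of the call falls between members. Speer4a lies just inside it at -1.18, and Speer2, with the highest counts of the family, lies outside it at -0.77. Speer4a was not called by the Wald test of DESeq2, which called 3 members. When every gene with at least 1 count was fitted, Speer4c was also called, at a log2 fold change of -1.73, while Speer3 (-1.23) and Speer4e (-1.31) were not. When at least 10 counts were required in every mouse, Speer2 was the only member left and 0 members were called.

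A sum over the copies is not changed by how reads were split among the genes summed, but reads shared with genes outside the sum, such as Speer7-ps1 and Speer1-ps1, or discarded still affect it. The 7 members on chromosome 5 together had 129, 112 and 99 counts in WT and 37, 34 and 12 counts in Trf2-/- mice. This corresponds to 4.50, 4.29 and 4.75 CPM in WT against 1.47, 1.46 and 0.759 CPM in Trf2-/- testis. The WT mice lay close together, Trf2-/- mice 1 and 2 were nearly equal, and Trf2-/- mouse 3 was the lowest, as it was for Speer2. The log2 ratio of the means was -1.88 for these 7 genes and -1.90 for the 6 Speer4 copies alone. With Speer2 included, the family stood at 76.7 ± 1.39 CPM in WT and 43.4 ± 7.67 CPM in Trf2-/- testis, a log2 ratio of -0.82. Speer2 supplied 94.1% of the counts of the family in WT and 97.1% in Trf2-/- testis.

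Levels of different members can be compared only per length of transcript. In WT testis Speer2 stood at 62.0 ± 1.10 CPM per kilobase, and the next member, Speer4f, at 0.679 ± 0.186 CPM per kilobase. Speer4d (0.523 ± 0.0265), Speer4c (0.506 ± 0.151) and Speer4b (0.380 ± 0.0447 CPM per kilobase) followed. Among these 4 copies each overlapped its neighbour in the order, so adjacent ranks were not separated by the spread between mice. Speer4f (lowest WT value 0.488) and Speer4d (0.494) nevertheless lay above all WT values of Speer4b, the highest of which was 0.417 CPM per kilobase. Speer4a, at 0.303 ± 0.00720 CPM per kilobase, was below all values of Speer4b and above all values of Speer4e. Speer4e and Speer3 were the lowest, at 0.194 ± 0.0385 and 0.186 ± 0.0226 CPM per kilobase, and overlapped. The levels of the chromosome 5 copies rest on few counts, in WT 25, 23 and 19 for Speer4a and 10, 9 and 5 for Speer4e. Counting error was not assessed for this order, which is a description of these mice.

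The order of the Speer4 copies depended on the length used. Per kilobase of uniquely placed windows, Speer2 again came first at 88.1 CPM in WT, but Speer4c came next at 4.16 CPM, followed by Speer4d at 2.08 and Speer4f at 1.66 CPM. Speer3 again came last at 0.287 CPM. This scale divides all counts of a gene by its uniquely placed windows, so it holds only if reads with several matches were discarded, which is not known. Speer4c has just 141 such windows and shares 300 exon bases with Speer7-ps1, so its place is uncertain. In Trf2-/- testis Speer4c and Speer4a had means of 0.142 and 0.132 CPM per kilobase, and Speer4f, the first of the chromosome 5 copies in WT, had a mean of 0.104 CPM per kilobase. With SDs of 0.0161 to 0.0551 CPM per kilobase among these copies and Speer4d, their order in Trf2-/- testis was not separated.

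The table holds 3 further genes with a Speer name that were not among the 8. Speer1-ps1 (chr5:11341541-11346286) had 85, 89 and 67 counts in WT and 30, 33 and 13 in Trf2-/- mice. It was down-regulated, with a log2 fold change of -1.45 ± 0.21 (edgeR, adjusted p = 0.00139). Speer7-ps1 (chr5:15186528-15220414), annotated as a long intergenic RNA, had 132, 97 and 74 counts in WT and 54, 43 and 21 in Trf2-/- mice and was also down-regulated, at -1.13 ± 0.21 (edgeR, adjusted p = 0.00359). Without Trf2-/- mouse 3, 1 of these 2 genes was called. Both share most of their exon windows with other copies, only 11.7% being uniquely placed in Speer1-ps1 and 19.5% in Speer7-ps1. Speer5-ps1 on chromosome 10 (chr10:43931209-43938994), which shares few of its windows with other loci, had too few counts to be tested, with 9, 6 and 6 in WT and 1, 4 and 0 in Trf2-/- mice and a ratio of 0.280 (0.0825 to 0.763).

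Many genes without a Speer name resemble the family in sequence. Spliced transcripts of the 8 members were searched against those of other genes, in the sense direction only. The search found 34 further genes with at least 80% identity over 300 bases or more. Of these, 30 lie on chromosome 5 and 2 are the Speer1-ps1 and Speer5-ps1 genes above. Antisense resemblance was not searched for, and Speer7-ps1 is not among the 34 although it shares exact windows with Speer4 copies. Of the 34 relatives, 15 were tested, 12 were down-regulated and 0 up-regulated, with fitted log2 fold changes from -2.33 to -0.58 and a median of -1.29. The 3 that were not called were 5031410I06Rik (-0.97), 4933402N22Rik (-0.66) and Gm7347 (-0.58), named here after their values were seen. Leaving out those with a Speer name, 11 of 14 tested relatives were down-regulated. Beside these stands the share of 4.3% down-regulated over all tested genes. The other 19 relatives had too few counts to be tested. As with the Speer4 copies, some of those tested met the filter through the WT mice, so they are not a neutral sample of the relatives. The frequency of decreases on chromosome 5 was known before these genes were counted, and as relatives share exact sequence with members and with each other, their counts are not independent measurements.

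The closest relative was 4930572O03Rik, 97.8% identical to Speer4c, with 36 counts in WT and 13 in Trf2-/- mice, too few for the fit. Gm10354 (97.5% identical to Speer4e) had 6 and 3 counts, Gm1979 (96.8% identical to Speer4a) had 11 and 4, and Gm10220 (96.5% identical to Speer4a) had 6 and 0. The counts of Gm10354 and Gm1979 overlapped between genotypes. Gm7347, 96.7% identical to Speer4a, had 32 counts in WT and 18 in Trf2-/- mice, and its log2 fold change of -0.58 ± 0.60 was smaller than its error (edgeR, adjusted p = 0.483). The nearest copies in sequence therefore did not all show a resolved difference at this depth.

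Summed over the 34 relatives, the level was 37.1, 38.2 and 35.6 CPM in WT and 17.2, 18.3 and 10.2 CPM in Trf2-/- mice, a log2 ratio of -1.28. The genotypes did not overlap, and Trf2-/- mouse 3 was again the lowest. The 16 relatives on chromosome 5 nearest to Speer3 gave a log2 ratio of -1.25 and the 13 nearest to Speer4 copies one of -1.35. Adding the 7 members on chromosome 5 to the relatives on that chromosome gave 41.1 ± 1.09 CPM in WT and 16.4 ± 4.67 CPM in Trf2-/- testis over 37 genes, a log2 ratio of -1.33. Of the 41.1 CPM of this wider group in WT, the 7 members held 4.51 CPM and Speer1-ps1 held 3.20 CPM.

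Genes that lie beside the Speer copies and are neither Speer genes nor relatives by this sense-strand search included 0 that were called down-regulated. There were 9 such genes. With a share of 4.3% down-regulated over all tested genes, 0 calls among 9 is unremarkable, and nothing is read from it. Of 16 tested genes with a start within 500000 bases of a member, 6 were relatives by sequence, of which 4 were down-regulated, and 1 was Speer7-ps1. The other 9 were all above 0, with log2 fold changes from 0.05 to 0.94 and a median of 0.31, and 0 of them were called in either direction. Of all 16924 tested genes, 7631 were below 0, so most genes lay above 0. Nothing is read from the direction of these few neighbours either. Among these 9, Sema3c (0.31, edgeR adjusted p = 0.00452), a secreted guidance protein, and Cacna2d1 (0.69, edgeR adjusted p = 0.00807), a subunit of calcium channels, were higher in Trf2-/- testis at less than 2-fold. These 2 were named after their values were seen, and both consist entirely of uniquely placed windows.

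Next to Speer4a, relatives and a gene that is no relative lie at short distances. Gm5862, a relative that starts 15568 bases away, was down-regulated at -2.33 ± 0.50 (edgeR, adjusted p = 0.00826). Gm7347, described above, starts 19037 bases away. Gm5067, which is no relative and starts 25819 bases away, stood at 12.3 CPM in WT and 15.2 CPM in Trf2-/- testis, with a log2 fold change of 0.29 ± 0.19 (edgeR, adjusted p = 0.278). Next to Speer3, the relative Gm6650, 19592 bases away, was down-regulated at -1.24 ± 0.23 (edgeR, adjusted p = 0.00384). Over the whole of chromosome 5, 68 of 1064 tested genes (6.39%) were down-regulated, against 4.3% over all tested genes. The 68 include the 4 called members, the 12 called relatives and Speer7-ps1, so this share is not separate from the family. On chromosome 14 the share was 6.69%.

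**Figure D3:**
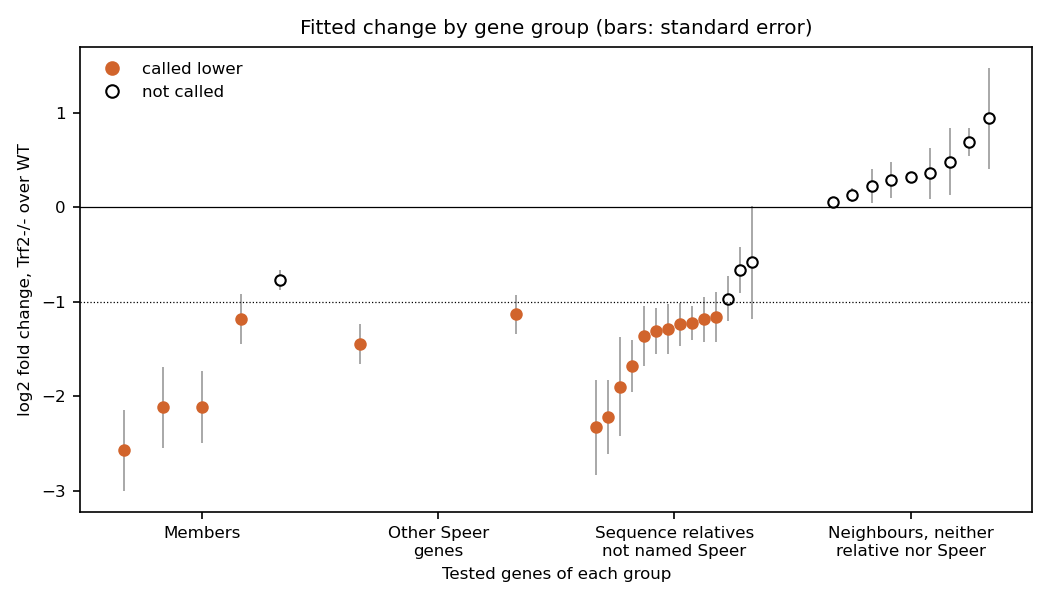
Fitted log2 fold change of Trf2-/- over WT (vertical axis, bars are standard errors) for the tested genes of 4 groups, each ordered by value: 5 Speer members, 2 other Speer genes, 14 sequence relatives without a Speer name and 9 neighbours that are neither. Filled points were called down-regulated, and the dotted line is the 2-fold limit. Members run from -2.58 to -0.77, and the 9 neighbours lie between 0.05 and 0.94. Most of all tested genes also lie above 0.

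As Trf2 is a factor of the general transcription machinery, the promoters of the members were searched for 4 short elements. These were TATAAA (the TATA box), TGACGTCA and its part TGACG (the cyclic AMP response element bound by CREM in germ cells) and CCAAT. The search covered 250 bases before to 50 bases after the start in RefSeq (build GRCm38.p6), on both strands. Promoters of 7 members were matched by symbol, and that of Speer4f was not. TATAAA was found in 0 of the 7 promoters and in 13.6% of all 32851 promoters, and TGACGTCA in 0 of the 7 and 1.79% of all. TGACG was found in 1 of the 7, that of Speer2, against 20.8% of all promoters, and CCAAT in all 7, against 37.4% of all. The matched Speer4 promoters are 95.1% to 98.7% identical in pairs, so the 7 are not independent. Nothing is read from these counts beside the shares of all promoters.

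The windows that hold these letters are shown because they separate the 3 kinds of Speer promoter. They were picked after the matches were seen. Each window runs 5′ to 3′ along the gene, with the matched letters in capitals, and ATTGG is CCAAT read on the other strand.
Speer2: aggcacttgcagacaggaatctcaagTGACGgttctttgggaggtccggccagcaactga
Speer3: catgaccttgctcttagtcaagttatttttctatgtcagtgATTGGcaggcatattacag
Speer4a: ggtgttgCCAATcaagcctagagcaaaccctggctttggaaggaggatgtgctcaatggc
Speer4c: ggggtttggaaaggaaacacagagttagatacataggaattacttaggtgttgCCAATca

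In GRCm38.p6 the Speer2 window is chr16:69863805-69863864 on the minus strand, 120 to 61 bases before the start. The other windows run from 250 to 191 bases before the start, at chr5:13791369-13791428 for Speer3 (plus strand), chr5:26039696-26039755 for Speer4a and chr5:15714462-15714521 for Speer4c (both minus strand). The words around CCAAT are the same in Speer4a and Speer4c (ggtgttgCCAATca), displaced from 243 bases before the annotated start to 197. In Speer2 CCAAT lies 21 bases after the start, so the 7 matches do not share a position. The promoters of the 5 matched Speer4 copies were 95.1% to 98.7% identical in pairs, and that of Speer3 was 75.0% to 76.2% identical to them. The promoter of Speer2 was paired with the others over at most 43 bases. Speer2 and Speer3, the closest pair outside the Speer4 group in coding sequence, were paired over only 6 bases. End gaps carried no penalty, so unlike sequences could slide past each other. These lengths therefore depend on the scoring and do not measure how far the Speer2 promoter can be aligned. Shorter shared stretches were not searched for. A match of letters is a description and does not show binding.

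In whole testis, fewer cells of a type and less RNA per cell cannot be told apart, and the levels of cell type markers are therefore given beside those of the family. Summed markers of round spermatids stood at 18.9 to 21.8 CPM in WT and at 7.96 to 10.5 CPM in Trf2-/- mice, and 6 of 7 tested markers were down-regulated. Markers of elongating spermatids stood at 6.86 to 8.58 CPM in WT and 0.948 to 1.63 CPM in Trf2-/- mice, with 4 of 4 tested markers down-regulated, among them Akap4, Odf1, Oaz3 and Gapdhs. The defining protamine marker Prm2 had a mean of 0.0288 CPM in WT mice and 0 counts in Trf2-/- mice. Spermatid markers were thus scarce in both genotypes and lower in Trf2-/- testis.

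Markers of pachytene spermatocytes stood at 4738 to 5129 CPM in WT and 3153 to 3901 CPM in Trf2-/- mice, and 3 of 6 (Ccna1, Pgk2 and Ovol2) were down-regulated. Without the fold limit, all 6 were lower at an adjusted p under 0.05. Markers of spermatogonia (243 to 260 CPM in WT, 253 to 333 in Trf2-/- mice) and of early spermatocytes (1090 to 1116 and 1260 to 1355 CPM, 4 of 5 listed genes being in the table) had 0 genes down-regulated. The same held for Sertoli cells (1465 to 1609 and 1710 to 1909 CPM, 7 of 8 listed genes), Leydig cells (181 to 360 and 185 to 326 CPM), peritubular cells (269 to 345 and 338 to 389 CPM) and macrophages (160 to 184 and 184 to 362 CPM). In the last of these lists 1 marker was up-regulated. At an adjusted p under 0.05 alone, 2 of 4 early spermatocyte, 3 of 7 Sertoli cell and 4 of 6 macrophage markers were higher. Spermatogonia, Leydig cells and peritubular cells had 1 such marker each, and 0 markers of these lists were lower. No marker was at 0 in all 6 mice.

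Set against its own WT mean, Speer2 was at 63.7%, 64.6% and 46.8% in Trf2-/- mice 1, 2 and 3. The 7 members on chromosome 5 were at 32.5%, 32.3% and 16.8%. The corresponding values were 50.1%, 51.2% and 39.0% for the round spermatid markers, 75.5%, 79.6% and 64.3% for the pachytene markers, and 14.2%, 21.6% and 12.6% for the elongating spermatid markers. These sums are carried by their most abundant genes, Spaca1 being 6.09 of 9.55 CPM of the round spermatid sum in Trf2-/- testis. The median fitted log2 fold change over the tested markers was -1.03 for pachytene spermatocytes, -1.89 for round spermatids and -3.05 for elongating spermatids, beside -0.77 for Speer2 and a log2 ratio of -1.88 for the 7 copies. Trf2-/- mouse 3 was the lowest for all 5 sums and the highest for spermatogonia (133%) and Sertoli cells (125%). The part of these marker differences in the levels of the Speer genes was not tested.

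**Figure D4:**
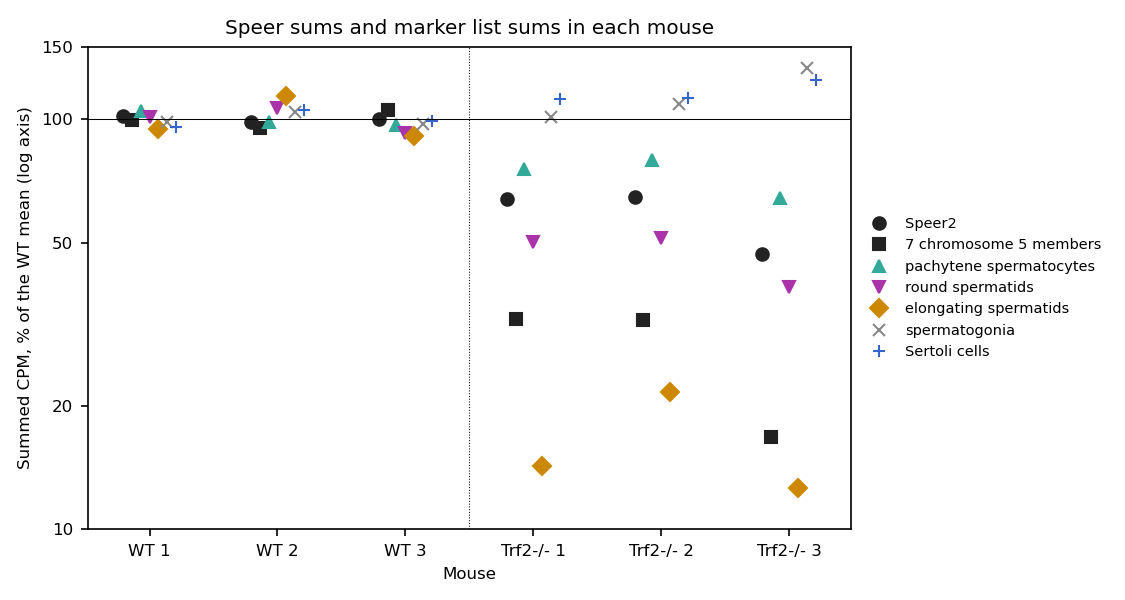
Summed CPM of Speer2, of the 7 members on chromosome 5 and of 5 cell type marker lists in each mouse, as a percentage of the WT mean of the same sum (logarithmic axis). WT mice lie near 100%. In the Trf2-/- mice Speer2 runs from 46.8% to 64.6% and the 7 copies from 16.8% to 32.5%, with Trf2-/- mouse 3 lowest in both.

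The 5 tested genes whose pattern over the 6 mice was most like that of the summed family were Sphkap, Ccdc65, Cetn1, Bag5 and Crtam. Likeness was the root mean square difference of centred log2 CPM, and ran from 0.0158 for Sphkap to 0.0303 for Crtam. Sphkap stood at 243, 233 and 243 CPM in WT and 145, 151 and 106 CPM in Trf2-/- mice. The 5 genes had fitted log2 fold changes from -0.84 to -0.77, so that, like Speer2, they lay outside the 2-fold limit. Cetn1 encodes the testis centrin and Ccdc65 a protein of motile cilia.

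For the 7 members on chromosome 5 the most alike genes were Fam46b (0.0534), 1700029F12Rik (0.0753), Slamf7 (0.0800), Slc1a2 (0.0947) and Tex21 (0.0996). Fam46b stood at 20.5, 19.3 and 21.4 CPM in WT and at 7.22, 7.16 and 4.11 CPM in Trf2-/- mice. The fitted log2 fold changes of these 5 genes ran from -1.81 to -1.64. The lists for the whole family and for the chromosome 5 copies had 0 genes in common. This follows from the log2 ratios of the sums, -0.82 and -1.88, and is no result. The family sum is mostly Speer2, which supplied 94.1% of its counts in WT and 97.1% in Trf2-/- testis. The likeness is a description over 6 mice of 2 genotypes. Trf2-/- mouse 3 was the lowest for each of the 10 genes. As the genes were picked for their match to these sums, this and their fold changes follow from the choice.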

How the data were processed

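Whole testis RNA of 3 WT and 3 Trf2-/- mice was depleted of ribosomal RNA, made into stranded libraries and sequenced as single-end reads of 50 bases. The authors deposited raw read counts per gene, with 1 column for each mouse. The submitters' processing notes name CASAVA 1.8.2, TopHat2 2.0.10, Bowtie2 2.1.0, HTSeq 0.5.4p3, DESeq2 1.0.19 and the build mm9 (NCBIM37). The strand setting, the treatment of reads with several matches and the annotation release are not given in the sources used here. The counting of such reads can change the level of every copy. Another 12 columns hold normalized values for single mice and were left aside, and the deposited comparison of the genotypes was not used either.

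The 8 members and all lists were chosen with earlier results of these data known. Counts were fitted over all genes with edgeR 4.0.16 in R 4.3.3 (filterByExpr, TMM, glmQLFit and glmQLFTest, genotype only), with Benjamini-Hochberg adjustment. A call required an adjusted p under 0.05 and a 2-fold difference. P-values measure the spread between these mice. Intervals of ratios are exact conditional intervals on summed counts and cover counting error only. Samples with the same replicate number did not deviate together, and no samples were duplicates.

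Sequences of transcripts and exons came from NCBIM37 with GENCODE M1. The table and this annotation shared 26576 genes, 26225 of them with the same start and end. All 50-base windows inside exons were counted in the genome by exact match on both strands, without junctions or mismatches. Identities of coding sequences and of promoters came from pairwise global alignments with Biopython 1.88, without penalty for end gaps. The coding sequences were aligned together with mafft 7.526 to choose the 50-base stretch. Promoter sequences came from RefSeq (GRCm38.p6).

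The genes named are all Speer genes, the 5 relatives highest in identity, the 5 nearest neighbours, the 5 most alike genes, the targeted gene and cell type markers, with exceptions marked in the text. Likeness used log2 of CPM plus 0.1. Relatives were to be found from proteins. They were found instead with blastn 2.17.0 on transcripts in the sense direction only. This rule was chosen after seeing the data, as were the likeness to the 7 members on chromosome 5 and the sequence windows. The methods were tested on simulated counts. Alternatives were to scale by library size alone or by DESeq2's size factors, to test with DESeq2 1.42.0 (Wald), to set other filters on low counts, to drop the fold limit, to add a replicate block and to leave out each mouse in turn.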

Additional observations from a re-analysis of the deposited data

How the results depend on the processing

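No member, and no count of genes, changed direction under the alternatives. The fitted log2 fold change of Speer4b moved from -2.12 to -2.94 without Trf2-/- replicate 2. Against 727 genes down-regulated and 103 up-regulated, library size alone gave 158 up, no filter beyond 1 count gave 159 up, at least 10 counts in every mouse gave 436 down and 61 up, and no fold limit gave 3423 down and 1889 up. Of the members, 0 were called with at least 10 counts in every mouse, where only Speer2 was tested. The log2 ratio of the summed family was -0.82, -1.73 as the mean of the members' own log2 ratios and, added after seeing the data, -1.88 for the 7 members on chromosome 5.

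Leaving out 1 mouse at a time gave 616 to 896 genes down, 53 to 177 up, 4 to 5 members down, 1 to 2 other Speer genes down (1 without Trf2-/- replicate 3) and a family log2 ratio from -0.91 to -0.68. The replicate numbers do not pair the mice (correlations of deviations -0.0589, -0.0830 and -0.0845), and the fit with a replicate block gave 725 genes down, 76 up, 4 members down and 2 other Speer genes down. Depth limits Speer3, Speer4c and Speer4e, which have 17, 43 and 24 counts over the WT mice.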
